A study of Rattus norvegicus and Homo sapiens with 12 samples.

Results

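The genes described here are 10 glutathione S-transferases (GSTs) of 60107 genes listed in the DU145 count table: GSTM1, GSTM2, GSTM3 and GSTM4 of the mu class, GSTP1 of the pi class, GSTO1 of the omega class, GSTA4 of the alpha class, GSTK1 of the kappa class, and the microsomal enzymes MGST1 and MGST3. They were picked by symbol, with the comparison of F2 with F0 DU145 already known, and matched to the table by Ensembl identifier. All 10 were listed, and 9 passed the filter on low counts. GSTM2 did not pass. Since this comparison was known when the genes were picked, their own differences are given as a description without a test.

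DU145 is a human prostate carcinoma cell line. F0 was the parental population, and F2 was the population recovered after repeated exposure of DU145 to conditioned medium (CM) from purchased human mesenchymal stem cells (MSCs). F0 and F2 were grown in DMEM with 10% serum, and RNA was read from the 3′ end by QuantSeq in 3 libraries of each population. The sample labels give 2 rounds of CM of 72 h each, whereas the series description gives 3 rounds with 48 h of recovery between them. Both populations come from 1 line, and the sources do not state whether the 3 F2 samples were selected separately, so p-values measure the spread between these samples, which may be technical.

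GSTs join the tripeptide glutathione to electrophilic compounds, among them drugs and products of lipid oxidation, and the conjugates are then exported from the cell. The alpha, mu, pi and omega enzymes are cytosolic, the kappa enzyme lies in mitochondria and peroxisomes, and the microsomal enzymes belong to an unrelated family of membrane proteins (MAPEG) that also makes eicosanoids. In the prostate, GSTP1 is best known because its promoter is commonly methylated and the gene silent in carcinoma.

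The mu genes lie together on chromosome 1 and are close copies, which decides how far their counts can be told apart. On the plus strand the annotated span of GSTM2 contains that of GSTM1 and overlaps that of GSTM4. The first 60 coding bases of the last exon are shown for each mu gene, read in the sense of the mRNA from GRCh38 with GENCODE release 29 positions. This exon holds the 3′ end that QuantSeq reads, but the stretch shown lies upstream of the last 400 bases. Capitals mark bases that differ from GSTM1.
GSTM1, chr1:109693206-109693265, plus strand: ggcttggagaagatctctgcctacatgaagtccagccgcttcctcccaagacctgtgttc
GSTM2, chr1:109674747-109674806, plus strand: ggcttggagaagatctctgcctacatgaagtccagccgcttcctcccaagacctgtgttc
GSTM4, chr1:109661165-109661224, plus strand: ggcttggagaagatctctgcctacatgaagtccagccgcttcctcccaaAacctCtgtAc
GSTM5, chr1:109717337-109717396, plus strand: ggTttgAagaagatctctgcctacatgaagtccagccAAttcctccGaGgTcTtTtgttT
GSTM3, chr1:109737110-109737169, minus strand: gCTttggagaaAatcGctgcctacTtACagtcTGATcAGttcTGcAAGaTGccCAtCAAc

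GSTM2 had 0 differences from GSTM1 in this stretch, GSTM4 had 3, GSTM5, a mu gene outside the 10, had 10, and GSTM3 had 25. The last 479 bases of the GSTM1 and GSTM2 transcripts were identical, so a 101-base read from the last 400 bases of either, of which there are 300 possible, occurs in both. For GSTM3, GSTM4 and the 6 genes of the other classes, 0 of 300 such reads occurred in an annotated transcript of another gene. With reads trimmed to 50 bases, 11.4% of GSTM4 positions were shared with GSTM1 and GSTM2, and for GSTM3 the share stayed at 0%. Over the whole coding sequence GSTM1 was 92.1% identical to GSTM4 and 90.0% identical to GSTM2, whereas GSTM3 was 69.9% to 72.6% identical to GSTM1, GSTM2, GSTM4 and GSTM5. Over the last 400 bases of the transcripts, GSTM1 was 100% identical to GSTM2, 93.1% to GSTM4, 43.1% to GSTM3 and 40.8% to GSTM5. GSTM1 and GSTM2 counts are therefore uncertain, since the table keeps reads with several alignments in a line of their own and assigns them to no gene. The 3′ end of GSTM1 also overlaps AC000032.1 on the opposite strand by 262 bases, and the use of strand in counting is not given in the sources used here.

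The F0 libraries held 16029876 to 16479239 gene counts and the F2 libraries 15879480 to 16217918. Of the reads placed once, 9.81% ± 0.213 (SD, n = 3) in F0 and 11.6% ± 0.303 (SD, n = 3) in F2 fell outside genes. Mitochondrially encoded genes accounted for 5.86% ± 0.145 (SD, n = 3) of the F0 and 10.4% ± 0.201 (SD, n = 3) of the F2 gene counts. Leaving those genes out changed no GST call, but TMM scaling was used with and without them. This refit therefore cannot show the part of the difference in the results for single genes. The epithelial genes KRT7, KRT8, KRT18, KRT19 and EPCAM were detected in all 6 libraries and KRT5 was at 0 counts. Of the 6 epithelial genes tested, 4 were higher in F2 (KRT8, KRT18, KRT19 and EPCAM) and 2 lower (KRT7 and CDH1). They passed the adjusted p threshold given below, as did 18.2% of all genes tested. Log2 fold changes ran from -1.27 for CDH1 to 0.67 for KRT19. KRT8 values overlapped between F0 and F2. With 1 library omitted, KRT8 passed in 3 and EPCAM in 1 of 6 fits. KRT8, KRT18 and EPCAM passed in 3 of 4 settings of the scaling. KLK2, a kallikrein of the prostate's luminal cells, was at 0 counts in all 6. Of 16 MSC markers, 10 had at most 3 counts in every library, and THY1, LUM, POSTN, CXCL12 and SPARC had 0 counts in all. COL1A1, LEPR and FN1 were detected in every library, with F0 means of 2.38, 3.16 and 4.88 CPM. Their F2 means were 1.86, 2.36 and 3.40 CPM. FN1 passed the threshold on the lower side, but in 0 of 6 fits with 1 library omitted. Without NT5E, which DU145 itself expressed, with 158 CPM in its F0 and 222 CPM in its F2 libraries, the summed level of the other 15 was 10.9 to 12.2 CPM in F0 and 7.84 to 8.57 CPM in F2.

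Of 14316 genes tested between F2 and F0, 2599 (18.2%) passed a Benjamini-Hochberg adjusted p of 0.05 in the quasi-likelihood test of edgeR, 1358 (9.49%) higher and 1241 (8.67%) lower in F2. With library size alone as the scaling, 832 were higher and 2805 lower. Of the 9 GSTs tested, 3 were among the genes past this threshold, GSTO1 on the higher side and GSTM3 and GSTP1 on the lower. At least 2-fold changes past the threshold were held by 239 genes (1.67%), among them 1 GST, GSTM3. F0 and F2 ranges did not overlap for 4867 genes (34%), and for 5 of the 9 GSTs. Nothing is read from these counts of GSTs, since the genes were picked on this comparison. The median log2 fold change of the 9 was 0.067, beside -0.0025 over all genes tested.

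**Figure D1:**
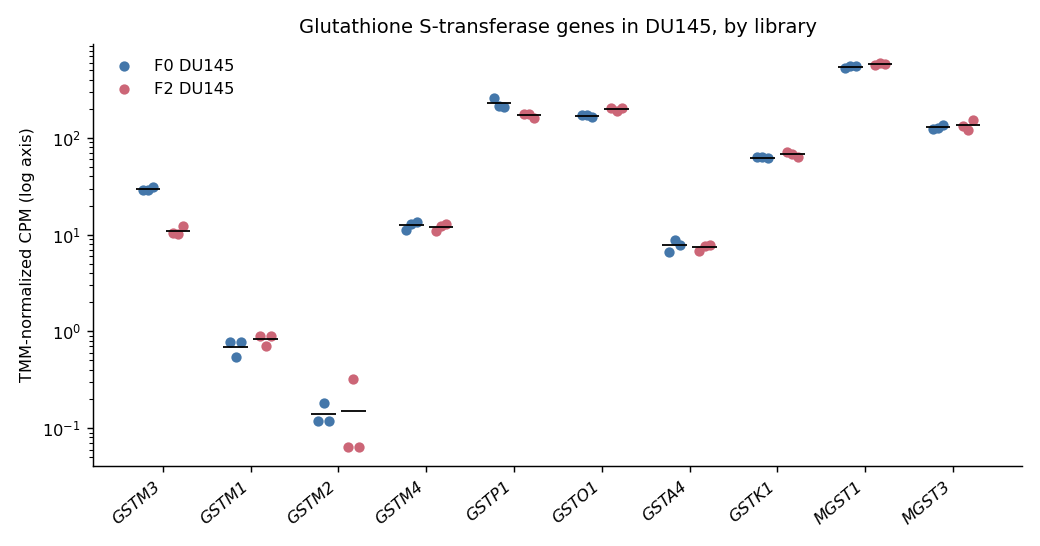
Level of each of the 10 GST genes in CPM (log axis) in the 3 F0 and 3 F2 libraries, with 1 point per library and a bar at the mean of each population. GSTM3 lay between 28.6 and 30.9 CPM in F0 and between 10.1 and 12.2 CPM in F2, while GSTM4 overlapped between the populations. GSTM1 and GSTM2 also overlapped, but their counts were few and left out reads placed at both genes.

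The levels of the 10 genes in F0 spanned from MGST1 at 543 CPM to GSTM2 at under 1 CPM. Levels are in CPM, which are counts relative to the TMM-scaled size of each library, and were not divided by gene length, because QuantSeq reads each transcript once near its 3′ end. In F0 the order was MGST1, GSTP1, GSTO1, MGST3, GSTK1, GSTM3, GSTM4, GSTA4, GSTM1 and GSTM2, and no gene's 3 values overlapped those of its neighbour in this order. In F2 GSTO1 lay above GSTP1 with no overlap, and GSTM3 had come down to the level of GSTM4, with overlapping values. Among all genes tested, MGST1 stood at the 98.4th percentile of F0 levels, GSTP1 at the 94.8th, GSTM3 at the 61.8th and GSTM1 at the 2.93rd. The places of GSTM1 and GSTM2 rest on counts without reads placed at both genes, and may be too low.

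GSTM3 had the largest log2 fold change of the 9 GSTs tested, though the differences of GSTP1, MGST1 and GSTO1 were larger in CPM. It encodes a mu-class enzyme that is abundant in testis and brain, and lies on the minus strand at chr1:109733932-109741038 (ENSG00000134202), with an 8-exon transcript whose last exon holds 3238 bases. It had 485, 475 and 522 counts in F0 and 163, 155 and 191 in F2, or 28.6, 28.8 and 30.9 CPM and 10.4, 10.1 and 12.2 CPM. Every F2 value lay far below every F0 value. In RNA from whole cultures, fewer cells that express a gene and less RNA of it per cell cannot be told apart. The means were 29.4 ± 1.26 CPM (SD, n = 3) and 10.9 ± 1.13 CPM (SD, n = 3), a log2 fold change of -1.43 (SE 0.096) or a 2.70-fold lower level in F2. It ranged from -1.52 to -1.38 with each library left out in turn. Among the 1241 genes past the threshold on the lower side, 49 had a more negative log2 fold change.

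The 3 mu genes on the plus strand beside GSTM3 gave another picture, with overlapping values in F0 and F2. GSTM4 (chr1:109656081-109674836) had 11.0, 12.8 and 13.7 CPM in F0 and 10.9, 12.3 and 12.8 CPM in F2, a log2 fold change of -0.062 (SE 0.11). The F0 values spanned nearly all of the F2 values. GSTM1 (chr1:109687814-109709039), a classic enzyme of carcinogen conjugation, had 13, 9 and 13 counts in F0 and 14, 11 and 14 in F2, a log2 fold change of 0.26 (SE 0.37). GSTM2 (chr1:109668022-109709551) had 2, 3 and 2 counts in F0 and 1, 5 and 1 in F2, too few for a fold change. Reads shared by GSTM1 and GSTM2 are not among these counts where the aligner placed them at both genes. The counts are therefore lower bounds of what the pair expresses together, and a difference between F0 and F2 was not detectable from them. Multiply aligned reads per gene count came to 0.604 ± 0.0172 (SD, n = 3) in F0 and 0.551 ± 0.0188 (SD, n = 3) in F2, which covers all genes and cannot be assigned to this pair.

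GSTP1, the pi-class enzyme, was expressed at a high level in both populations and was lower in F2. It lies on the plus strand at chr11:67583595-67586656 (ENSG00000084207). Its levels were 259, 216 and 206 CPM in F0 and 176, 176 and 160 CPM in F2, from 3487 to 4387 counts and from 2517 to 2749 counts. The populations did not overlap, and F0 replicate 1 stood above the other F0 libraries. The means were 227 ± 28.0 CPM (SD, n = 3) and 171 ± 9.004 CPM (SD, n = 3), a log2 fold change of -0.41 (SE 0.067) or a 1.33-fold lower level in F2. Without F0 replicate 1 it was -0.31, the value nearest to 0 when each library was left out in turn, and the most negative was -0.48. Of the 1241 genes past the threshold on the lower side, 469 had a more negative log2 fold change, so GSTP1 stood well inside their range.

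GSTO1, an omega-class enzyme that reduces mixed disulfides, dehydroascorbate and methylated arsenic species, was the GST past the threshold on the higher side. It lies on the plus strand at chr10:104235356-104267459 (ENSG00000148834). Its levels were 172, 173 and 165 CPM in F0 and 204, 191 and 206 CPM in F2. All F2 values were above all F0 values. The means were 170 ± 4.36 CPM (SD, n = 3) and 200.5 ± 8.03 CPM (SD, n = 3), with a log2 fold change of 0.24 (SE 0.047), which was 0.15 with library size alone as the scaling.

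MGST1, the most abundant of the 10, encodes a glutathione transferase and peroxidase of the endoplasmic reticulum and outer mitochondrial membrane. It lies on the plus strand at chr12:16347142-16609259. Its levels were 531, 548 and 550.0 CPM in F0 and 572, 593 and 576 CPM in F2. The ranges were separate but close, with a log2 fold change of 0.096 (SE 0.041). GSTK1 (chr7:143244093-143270854, plus strand), the mitochondrial and peroxisomal enzyme, had 62.8, 62.8 and 62.6 CPM in F0 and 71.5, 68.5 and 63.6 CPM in F2, a log2 fold change of 0.11 (SE 0.058). Its lowest F2 value, 63.6 CPM, lay just above the F0 values, which were almost equal. Both genes rest on the scaling, since with library size alone the log2 fold changes were 0.0058 for MGST1 and 0.024 for GSTK1.

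MGST3 and GSTA4 overlapped between F0 and F2. MGST3 (chr1:165630861-165661796, plus strand), a microsomal transferase and peroxidase, had 123.1, 127 and 137 CPM in F0 and 134, 119.7 and 152 CPM in F2, a log2 fold change of 0.067 (SE 0.067). The F2 libraries held both the lowest and the highest of its 6 values. GSTA4 (chr6:52977948-52995378, minus strand), which conjugates the lipid peroxidation product 4-hydroxynonenal, had 6.67, 8.90 and 7.75 CPM in F0 and 6.84, 7.60 and 7.84 CPM in F2, a log2 fold change of -0.065 (SE 0.14). F0 spanned all of its F2 values.

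**Figure D2:**
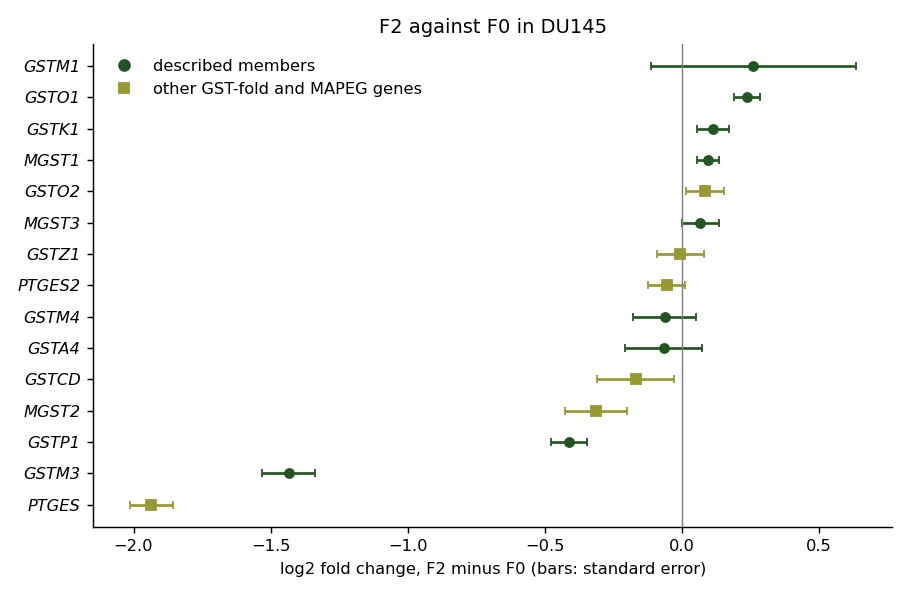
Log2 fold change of F2 against F0 for the 9 GSTs tested and for the other tested genes of the GST fold and the MAPEG family, with bars of 1 SE from edgeR. GSTM3 at -1.43 and PTGES at -1.94 stand apart from the rest, which lie between -0.41 and 0.26.

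Added over the 10 genes, the level hardly moved. The summed level was 1195, 1179 and 1174 CPM in F0 and 1187, 1179.5 and 1192 CPM in F2, with overlapping values. The means were 1183 ± 11.2 CPM (SD, n = 3) and 1186 ± 6.32 CPM (SD, n = 3). The mean of GSTP1 fell by 56.3 CPM and that of GSTM3 fell by 18.5 CPM, whereas the mean of MGST1 was higher by 37.2 CPM, that of GSTO1 by 30.6, that of MGST3 by 6.16 and that of GSTK1 by 5.13. As a share of raw gene counts the 10 genes took 0.122% ± 0.000868 (SD, n = 3) in F0 and 0.115% ± 0.000453 (SD, n = 3) in F2. Without the mitochondrially encoded genes in the total, the shares were 0.129% and 0.128%, so most of the difference between the first pair of values went with the mitochondrial share.

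Within the family the makeup shifted. GSTP1 made up 19.2% of the family's counts in F0 and 14.4% in F2, and GSTM3 made up 2.49% and 0.918%. MGST1 went from 45.9% to 48.9%, GSTO1 from 14.4% to 16.9%, MGST3 from 10.9% to 11.4% and GSTK1 from 5.31% to 5.72%. These are shares of a fixed whole, so that a lower share of one gene raises the others.

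**Figure D3:**
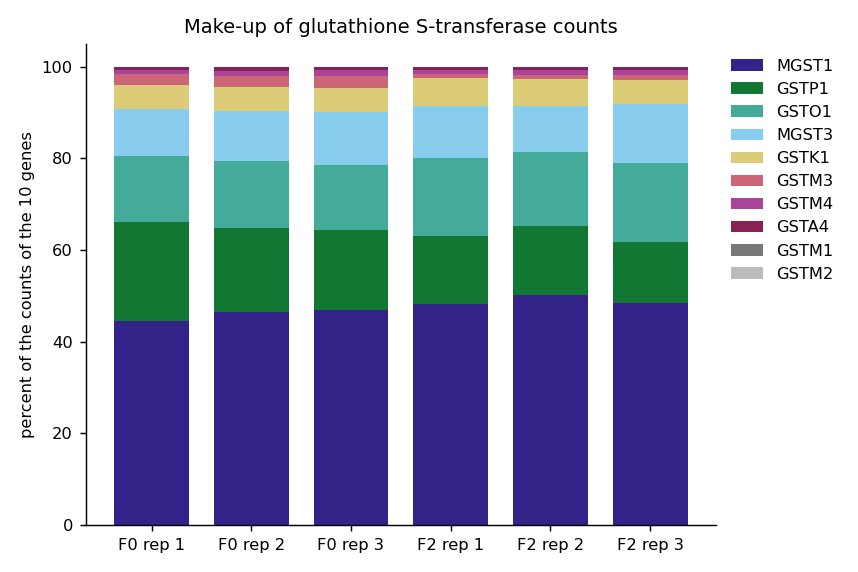
Share of the summed counts of the 10 GST genes taken by each gene, in percent, as 1 stacked bar for each of the 6 libraries. MGST1 held the largest share in both populations. On average GSTP1 went from 19.2% to 14.4% and GSTO1 from 14.4% to 16.9%.

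Outside the 10, 18 genes of the GST fold or the MAPEG family were listed by name, of which 17 were matched in the table, and GSTT1 was not analysed here. Of the 6 that could be tested, 1 passed the threshold and was lower in F2, beside 8.67% of all genes tested, and their median log2 fold change was -0.11. That gene was PTGES, the MAPEG enzyme that makes prostaglandin E from its endoperoxide precursor. It had 252, 210 and 188 CPM in F0 and 55.9, 58.8 and 55.2 CPM in F2, without overlap. Its log2 fold change was -1.94 (SE 0.078, adjusted p = 1.18e-12 by the edgeR quasi-likelihood test, Benjamini-Hochberg adjusted).

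MGST2, the microsomal enzyme nearest in family to MGST3, which can also make leukotriene C, did not pass. Its levels were 20.4, 18.6 and 20.2 CPM in F0 and 18.6, 12.9 and 16.2 CPM in F2, a log2 fold change of -0.31 (SE 0.11, edgeR adjusted p = 0.0605). Without F2 replicate 1 it was -0.44 and passed, and without F2 replicate 2 it was -0.18. GSTO2, the omega gene beside GSTO1, had means of 41.5 ± 2.96 and 43.97 ± 1.59 CPM (SD, n = 3), a log2 fold change of 0.084 (edgeR adjusted p = 0.443). GSTZ1, which isomerises maleylacetoacetate in tyrosine breakdown, had means of 36.2 and 36.1 CPM, GSTCD 9.09 and 8.09 CPM, and PTGES2 53.1 and 51.2 CPM, with edgeR adjusted p-values of 0.977, 0.455 and 0.624. ALOX5AP, a MAPEG protein of leukotriene synthesis, had 2 to 7 counts per library and was not tested.

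Several further GSTs had 0 or few counts. GSTA1, GSTA2, GSTA3, GSTA5, GSTT2, GSTT4 and HPGDS had 0 counts in all 6 libraries. For uniquely placed reads this allows up to 3 counts per library, or 0.182 to 0.189 CPM without TMM scaling, for counting error only. Reads with several alignments are left out of these counts, and read sharing was not counted for these genes. GSTM5 had 1, 0 and 2 counts in F0 and 0 in each F2 library.

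Lists of genes that make, recycle, break down, export or use glutathione, and of other detoxification enzymes, held more genes lower than higher in F2. The lists were chosen with earlier results of these data known, so their counts and the adjusted p-values of their genes are a description. In the 5 glutathione lists of 58 genes, 43 could be tested, 3 were higher and 16 lower (6.98% and 37.2%, beside 9.49% and 8.67% of all genes tested), with a median log2 fold change of -0.15, beside -0.0025 over all genes. With the other detoxification enzymes, 60 of 78 genes could be tested, 3 were higher and 27 lower. DESeq2 gave 0 higher and 23 lower for the 6 lists together.

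Of 6 tested genes of glutathione synthesis, 4 were lower and 0 higher, with a median log2 fold change of -0.22. GCLC, the catalytic subunit of the rate-limiting ligase, had 94.8, 97.5 and 102 CPM in F0 and 80.8, 79.7 and 76.2 CPM in F2, without overlap. Its log2 fold change was -0.31 (SE 0.053, edgeR adjusted p = 2.83e-04). SLC3A2, the heavy chain of the cystine transporter, fell from 285 ± 9.90 to 238 ± 10.9 CPM (SD, n = 3, edgeR adjusted p = 6.68e-04). SLC7A11, the cystine-carrying chain, fell from 166 ± 8.60 to 146 ± 4.77 CPM (SD, n = 3, edgeR adjusted p = 0.0133), and GCLM, the modifier subunit of the ligase, fell from 181 ± 10.5 to 162 ± 4.06 CPM (SD, n = 3, edgeR adjusted p = 0.0254). The last 2 are the less certain. SLC7A11 passed in 3 and GCLM in 2 of the 6 fits with 1 library omitted, and the list's count was 2 without F0 replicate 2, without F0 replicate 3 or without F2 replicate 1.

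Of 12 tested genes of the glutathione redox cycle, which oxidises glutathione to remove peroxides and reduces it again, 7 were lower and 1 higher. GSR, the reductase that regenerates glutathione with NADPH, had 200.5, 229 and 222 CPM in F0 and 141, 145 and 149 CPM in F2, without overlap. Its log2 fold change was -0.58 (SE 0.052, edgeR adjusted p = 1.62e-07), and omitting any 1 library left it past the threshold. GLRX, a glutaredoxin that removes glutathione from proteins, fell from 10.3 ± 0.728 to 6.995 ± 0.947 CPM (SD, n = 3, edgeR adjusted p = 0.00578). GPX4, which reduces lipid peroxides in membranes, fell from 255 ± 12.4 to 222 ± 17.7 CPM (SD, n = 3, edgeR adjusted p = 0.0141), and passed in 3 of 6 fits with 1 library omitted. GPX7, at 1.97 ± 0.242 and 0.812 ± 0.519 CPM (SD, n = 3), had the most negative log2 fold change of the list at -1.27 (SE 0.37, edgeR adjusted p = 0.0165), from few counts. It was -1.92 without F2 replicate 1, and GPX7 passed in 3 of 6 fits with 1 library omitted. The higher gene was GLRX3, which works in iron-sulfur handling, at 127 ± 5.72 and 142 ± 6.28 CPM (SD, n = 3, edgeR adjusted p = 0.0356), and it did not pass with library size alone, in DESeq2 or in 4 of 6 fits with 1 library omitted. Among the remaining lower genes were GPX3, a secreted peroxidase, and PGD, which supplies NADPH, with log2 fold changes of -0.42 and -0.39. The list's count of 8 was 5 without F2 replicate 3.

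**Figure D4:**
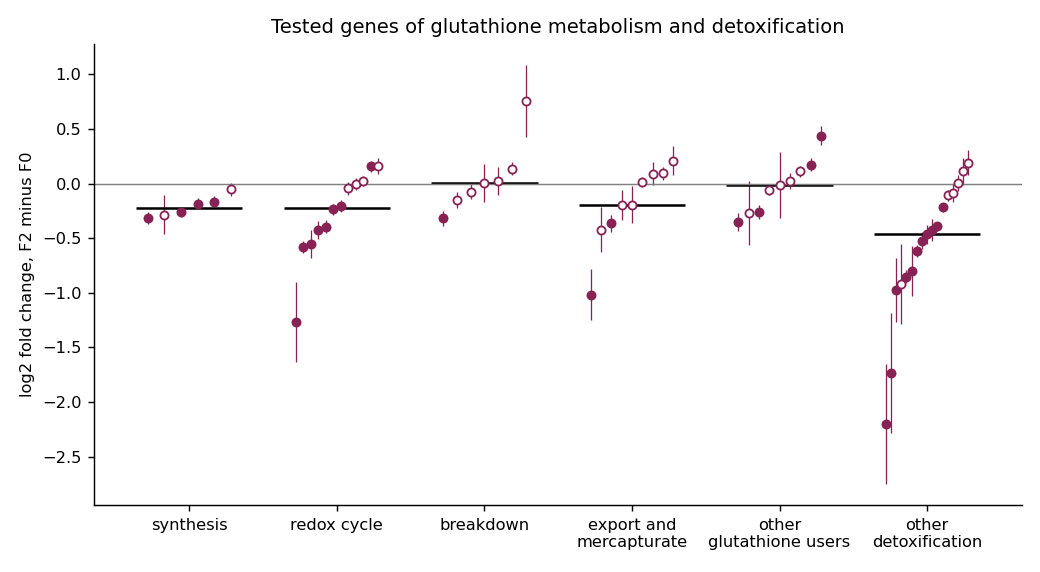
Log2 fold change of F2 against F0 for each tested gene of the 6 glutathione and detoxification lists, with 1 point per gene, bars of 1 SE from edgeR and a line at the median of each list. Filled points passed the adjusted p threshold and lie mostly below 0, with 27 lower and 3 higher of 60.

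Breakdown and export gave fewer calls. Of 7 tested genes of glutathione breakdown 1 was lower, CHAC1, a cytosolic enzyme that cleaves glutathione, which fell from 37.5 ± 1.07 to 30.0 ± 0.779 CPM (SD, n = 3, edgeR adjusted p = 0.00277). Over the list the median was 0.0032 on the log2 scale. Of 9 tested genes of conjugate export and mercapturate formation 2 were lower and 0 higher. ABCG2, a drug efflux pump, had 2.95, 3.75 and 3.08 CPM in F0 and 1.53, 1.88 and 1.403 CPM in F2, a log2 fold change of -1.02 (SE 0.24, edgeR adjusted p = 0.00414). ABCC4, an organic anion exporter, fell from 39.1 ± 2.47 to 30.3 ± 2.35 CPM (SD, n = 3, edgeR adjusted p = 0.00223). ABCC1, the main exporter of glutathione conjugates, had 27.0 ± 6.68 and 23.6 ± 3.96 CPM (SD, n = 3, edgeR adjusted p = 0.373). Its F0 values were spread widely, from 20.0 to 33.3 CPM, and without F0 replicate 1, the lowest of them, its log2 fold change was -0.37 and passed, whereas it was -0.016 without F0 replicate 3 and -0.078 without F2 replicate 1.

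Among 9 tested genes of other glutathione users, which include glyoxalases and the GST-fold chloride channel proteins, 2 were higher and 2 lower. CLIC1, whose product has the GST fold, had 292, 261 and 246 CPM in F0 and 332, 437 and 312 CPM in F2, with F2 replicate 2 the highest. Its log2 fold change was 0.44 (SE 0.088, edgeR adjusted p = 0.00153), 0.28 without F2 replicate 2, and it did not pass in DESeq2. CLIC4 rose from 91.2 ± 7.91 to 103 ± 2.06 CPM (SD, n = 3, edgeR adjusted p = 0.0498) and passed in 1 of 6 fits with 1 library omitted, but neither in DESeq2 nor with library size alone. LANCL1, a glutathione-binding protein, fell from 23.9 ± 1.41 to 18.8 ± 0.504 CPM (SD, n = 3, edgeR adjusted p = 0.00654), and ETHE1, a mitochondrial persulfide dioxygenase, fell from 46.6 ± 1.54 to 39.0 ± 0.294 CPM (SD, n = 3, edgeR adjusted p = 0.00692).

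Detoxification enzymes that do not use glutathione as their conjugating partner formed the largest of the 6 lists. Of 17 tested genes, 11 were lower (64.7%, beside 8.67% of all genes tested) and 0 higher, with a median log2 fold change of -0.46. Genes past the threshold in either direction made up 66.7% of the synthesis list and of the redox cycle list. DESeq2 called 7 of the detoxification enzymes, all lower. ALDH1A3, an aldehyde dehydrogenase that makes retinoic acid, had 93.5, 90.9 and 89.5 CPM in F0 and 53.1, 51.8 and 46.7 CPM in F2, without overlap. Its log2 fold change was -0.85 (SE 0.059, edgeR adjusted p = 3.66e-09). ALDH3A1, an aldehyde dehydrogenase of aromatic and lipid aldehydes, fell from 2.06 ± 0.207 to 1.05 ± 0.247 CPM (SD, n = 3, edgeR adjusted p = 0.0220), a call lost in DESeq2 and in 3 of 6 fits with 1 library omitted. AKR1C3, an aldo-keto reductase of steroids and prostaglandins, fell from 3.58 ± 0.730 to 2.06 ± 0.351 CPM (SD, n = 3, edgeR adjusted p = 0.0182), and its close copies AKR1C1 and AKR1C2 may share reads with it. Its call was lost in DESeq2, without F0 replicate 2 and without F2 replicate 1. NQO1, the quinone reductase, which was named after its value was seen because it was the most abundant of the list, had 1427, 1400 and 1397 CPM in F0 and 1077, 1070.2 and 1072 CPM in F2, a log2 fold change of -0.39 (edgeR adjusted p = 5.31e-07).

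The chromosomal neighbours of the mu genes were compared because they share the position of GSTM3 but not its sequence. Within 500000 bases of the span chr1:109656081-109741038, 39 further genes were listed and 17 tested, with log2 fold changes from -0.48 to 0.38 and a median of -0.0099. Of these 2 passed, both lower, beside 18.2% of all genes tested in either direction and 8.67% on the lower side. AHCYL1, a regulator of inositol trisphosphate receptors, fell from 505 ± 14.9 to 390.5 ± 19.3 CPM (SD, n = 3), a log2 fold change of -0.37 (SE 0.046, edgeR adjusted p = 9.32e-06). CSF1, macrophage colony-stimulating factor and the nearest tested gene on the GSTM3 side, fell from 84.8 ± 2.95 to 75.6 ± 1.10 CPM (SD, n = 3), a log2 fold change of -0.17 (SE 0.052, edgeR adjusted p = 0.0326), and passed in 1 of 6 fits with 1 library omitted and not in DESeq2 or without the filter on low counts. AMPD2, AMP deaminase and the nearest tested gene on the other side, had a log2 fold change of -0.062 (SE 0.089, edgeR adjusted p = 0.689). The log2 fold change of GSTM3, at -1.43, lay outside the range of the 17 neighbours. Nothing is read from this, since GSTM3 was picked with this comparison known and the neighbours were taken by position. Whether position plays a part was not tested.

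**Figure D5:**
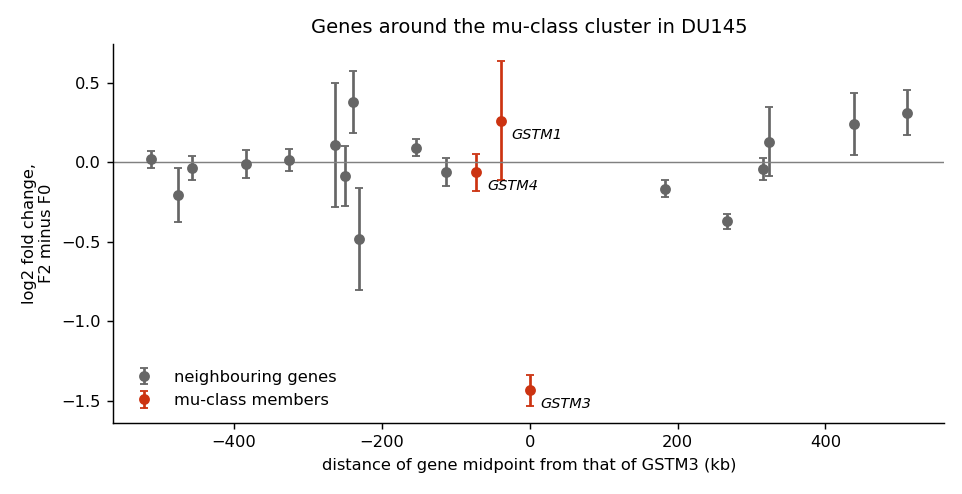
Log2 fold change of F2 against F0 for the mu GSTs and the other tested genes around them, by the distance of each gene's midpoint from that of GSTM3 in kb, with bars of 1 SE from edgeR. GSTM3 lies at -1.43, and the 17 neighbours between -0.48 and 0.38.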

How the data were processed

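RNA of F0 and F2 DU145 was measured by QuantSeq in 3 libraries of each, from 500 ng of RNA and 101-base single-end reads. The authors deposited raw counts per gene without normalization, and the submitters' processing notes name STAR 2.5.2a, HTSeq 0.6.0 and GRCh38. The annotation and the use of strand are not given in the sources used here. Columns were matched to samples by line, population and replicate number. Lines that name no gene were left out, and ambiguous reads were 1.50% of uniquely placed reads in F0 and 1.39% in F2. The 92 spike-in rows held 0 counts. The counts carry no molecular identifiers and hold any PCR duplicates, so a limit drawn from a count of 0 covers counting error only. Replicates differed by more than sampling noise (chi-square per degree of freedom 2.20 to 5.95).

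Everything else was computed here in R 4.3.3. Genes were filtered with filterByExpr of edgeR 4.0.16 (minimum count 10), scaled by TMM (factors 1.029 to 1.034 in F0 and 0.968 to 0.971 in F2) and tested between F2 and F0 by the two-sided quasi-likelihood F-test without covariates, with Benjamini-Hochberg adjustment over all 14316 genes and a threshold of 0.05. Values given as CPM are TMM-normalized. DESeq2 1.42.0 was an alternative, and edgeR called limma 3.58.1. Symbols were matched for 56104 and GENCODE release 29 positions for 56531 of the 60107 identifiers. Read sharing was counted for the 3′ end of 1 GENCODE transcript per gene, against all GENCODE transcripts of other genes.

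The members, the gene lists and the tests were chosen with earlier results of these data known. The text names all members, the genes of the GST-fold and MAPEG list with at least 10 counts in all, the 3 largest rises and 3 largest falls past the threshold in each pathway list at a mean of at least 1 CPM, GCLC, GCLM, SLC7A11, GSR, GPX4 and ABCC1 in any case, and the neighbours past the threshold or nearest to the mu genes. Other genes are named as markers, as undetected genes or after their values were seen (NQO1, GPX3, PGD, AKR1C1 and AKR1C2). Some genes of the lists are counted but not reported here by name.

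Alternatives were median-ratio size factors, library size alone, the mitochondrially encoded genes left out, a filter of 1 count in all in place of filterByExpr, a stricter one of 10 counts in each library, DESeq2, a replicate block and each library left out in turn. The script was tested on simulated data. The rat PAIII table was not used, because no table here pairs its identifiers with symbols, and promoter sequences were not analysed.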

Additional observations from a re-analysis of the deposited data

How the results depend on the processing

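The count of genes past the threshold was 2599. It lay between 1670 and 2621 with each library left out, the lowest without F0 replicate 2. It was 1920 in DESeq2 and 3637 with library size alone, which moved the median log2 fold change of all genes to -0.092. The GSTs past the threshold numbered 1 higher and 2 lower under all 13 alternatives. GSTM3, GSTP1 and GSTO1 passed in each of the 6 fits without a library. Nothing is read from this, since the GSTs were picked on this comparison and the fits reuse its libraries. GSTM1 was not tested when at least 10 counts in every library were required. Of 116 member values under the alternatives, 4 moved by more than the SD between replicates, those of GSTO1, GSTK1 and MGST1 with library size alone and that of GSTM1 without F0 replicate 2 (0.12).

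The count of other GST-fold and MAPEG genes rose from 1 to 2, by MGST2, with library size alone and with no filter, and lay between 1 and 2 with each library left out. The count of neighbours went from 2 to 1 with no filter and in DESeq2, and lay between 1 and 2 with each library left out. The difference in the GSTs' share of gene counts, -0.0070 percentage points, was -0.0012 without the mitochondrially encoded genes and lay between -0.0073 and -0.0065 with each library left out. The sign changed for GSTO2 with library size alone (-0.0059) and for GSTZ1 without F0 replicate 1 (0.088) and without F2 replicate 3 (0.061), with a range from -0.072 to 0.088 over the libraries left out, and neither gene passed in the fit reported. The breakdown list had 2 calls in place of 1 with library size alone, with no filter, without F0 replicate 3 and without F2 replicate 2, and the other glutathione users had 2 in place of 4 in DESeq2. For other named genes 314 values kept direction and side of the threshold, 41 no longer passed (10 genes) and 5 newly passed (2 genes). The cause of these changes was not tested.

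Replicate numbers did not pair the samples: deviations of same-numbered F0 and F2 libraries correlated at 0.010, -0.010 and 0.029. With the replicate block 2867 genes passed, and 2 other GST-fold and MAPEG genes in place of 1. Changes in GSTM1 and GSTM2 were limited by few counts and by the reads shared between them, and those in other genes with few counts by depth. Comparison of the same genes in PAIII and the promoter motif count were not run.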
